A study of Mus musculus with 6 samples.

Results

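The genes described here form 3 clusters of zinc finger genes in the mouse genome, on chromosomes 2, 4 and 13. A member was a protein-coding gene of the GENCODE M21 annotation that lay wholly inside 174.5 to 178.5 Mb of chromosome 2, 145 to 148 Mb of chromosome 4 or 65 to 68 Mb of chromosome 13 (GRCm38), and whose symbol began with Zfp, Gm or Rsl or ended with Rik. The choice was by names and positions, and earlier results of these data were known when it was made. It gave 106 genes, with 46 on chromosome 2, 22 on chromosome 4 and 38 on chromosome 13, set against 53390 annotated genes with transcripts in the deposited tables. Reads cannot be tied to a single copy where copies share sequence, so shares of private sequence are given below.

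The 6 samples were polyadenylated RNA of mouse embryonic stem cells of the TKO line, sequenced as stranded libraries. TKO cells derive from male J1 cells and lack functional Dnmt1, Dnmt3a and Dnmt3b, so both groups share the loss of the DNA methyltransferases. The 3 TKO-2i replicates grew in N2B27 medium with the MEK inhibitor PD0325901 at 1 uM, the Gsk3 beta inhibitor CHIR99021 at 3 uM and LIF at 1000 U/ml. The 3 TKO-serum replicates grew in DMEM with 15% fetal calf serum and LIF at 500 U/ml. The comparison of TKO-2i with TKO-serum asks how expression differs between these media in cells without DNA methylation. Basal medium, serum, inhibitors and LIF dose changed together, and their parts cannot be told apart. All 6 samples come from a single line, and the labels call the replicates biological, so the p-values below measure only the spread between these samples.

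Most genes in such clusters encode proteins with an array of C2H2 zinc fingers that binds DNA, and many carry a KRAB domain that recruits the corepressor Trim28. Trim28 in turn brings the histone methyltransferase Setdb1 and heterochromatin proteins, and this pathway silences endogenous retroviruses in embryonic stem cells, also where DNA methylation is absent. The clusters grow by local duplication, which leaves neighbouring genes with long stretches of near identical sequence.

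A C2H2 finger was found in the longest annotated coding sequence of 88 of the 106 members, 37 on chromosome 2, 19 on chromosome 4 and 32 on chromosome 13. The other 18 members hold no finger there, so the name of the clusters covers most of the members and not each of them. A KRAB pattern was found in annotated coding sequences of 79 members, 41 on chromosome 2, 20 on chromosome 4 and 18 on chromosome 13. Among members with a finger, the median number of fingers was 13 on chromosome 2, 11 on chromosome 4 and 14 on chromosome 13. Expression per length differed between the clusters, with a median over members of the mean TPM (transcript abundance scaled by length and library) of 43.8 on chromosome 4, 9.05 on chromosome 2 and 2.28 on chromosome 13. The chromosome 4 cluster was thus the most strongly expressed of the 3.

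RNA of the targeted genes was still measured, and single exons were not analysed here. Dnmt1 measured 29.1, 34.6 and 29.3 TPM in TKO-2i replicates 1, 2 and 3 and 25.7, 28.6 and 27.9 TPM in TKO-serum replicates 1, 2 and 3. Dnmt3a measured 4.30, 5.19 and 4.54 TPM in TKO-2i and 21.3, 23.02 and 22.7 TPM in TKO-serum, in the same order of replicates. Dnmt3b measured 6.71, 9.53 and 8.49 TPM in TKO-2i and 18.8, 20.9 and 20.7 TPM in TKO-serum. Dnmt1 was higher in TKO-2i, at a log2 fold change of 0.24 ± 0.048 (SE). The RNA of Dnmt3a and Dnmt3b was lower in all 3 TKO-2i samples than in any TKO-serum sample.

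The deposited tables held 46228700, 44180642 and 43896549 estimated counts for TKO-2i replicates 1, 2 and 3 and 38274042, 51932739 and 44827609 for TKO-serum replicates 1, 2 and 3. At these depths 3 counts correspond to 0.0578 to 0.0784 CPM (counts scaled by the library total), a limit that covers counting error only. Of the 106 members, Gm2007 and Zfp967 have no transcript in the tables and were not analysed here. Gm11007, Zfp969, Gm11009 and Gm14408 had 0 reads in all 6 samples. Of these, Gm14408 had 17.5% private sequence and the others had none, so reads of their copies cannot be told apart from theirs. Zfp831, Gm10775, Gm10139, Gm28041 and Gm26965 had reads and did not pass the filter on low counts, and the remaining 95 members were tested. Gm10767 passed the filter through the TKO-2i group alone.

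Sequence was called private when a 75-base window of a member's transcripts was found in no other gene. The median private share was 91.7% on chromosome 13, 55.1% on chromosome 4 and 25.4% on chromosome 2. Of the members in the tables, 44 were under 50% private, 28 of them on chromosome 2, 10 on chromosome 4 and 6 on chromosome 13. Values of those members are uncertain, because reads of copies were divided between genes. Sums of counts over a cluster do not depend on how reads were divided inside it.

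Replicate 2 stood apart in both groups. Among the 95 tested members, 62 (65.3%) had their highest CPM in replicate 2 of TKO-2i and also in replicate 2 of TKO-serum, against 22.6% of all tested genes. On chromosome 4 this held for 19 of 22 members, on chromosome 2 for 22 of 39 and on chromosome 13 for 21 of 34. For the 333 tested genes named Zfp elsewhere in the genome the share was 44.4%. The main results are therefore given with all 6 samples, without TKO-2i replicate 2, and without replicate 2 of both groups. Leaving out both was chosen after seeing the data.

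With all 6 samples, 30 of the 95 tested members differed between TKO-2i and TKO-serum, which is 31.6%, against 62.5% of the 18177 genes tested. A call is an adjusted p under 0.05 in the edgeR quasi-likelihood test, after Benjamini-Hochberg adjustment over all tested genes. Of the members, 10 were higher in TKO-2i, or 10.5%, against 31.9% of all tested genes. Another 20 members were lower in TKO-2i, or 21.1%, against 30.6% of all tested genes. The median log2 fold change was -0.15 over the tested members and 0.013 over all tested genes. Replicates spread more in the members, with a median standard error of the log2 fold change of 0.164 against 0.104 over all tested genes.

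Without TKO-2i replicate 2, 51 of 96 tested members were called (53.1%), with 8 higher and 43 lower, beside 67.2% of all tested genes called. The 43 include Gm14440, Gm10139 and Zfp457, which passed the filter through TKO-serum alone and so had to be lower. Without replicate 2 of both groups, 49 members (51.6%) were called, 8 higher and 41 lower, beside 65.7% of all tested genes. The 41 include Gm10139 for the same reason. The median log2 fold change of the members was -0.26 in the first case and -0.16 in the second. Of the 30 members called with all samples, 25 kept their call and direction in the first comparison and 25 in the second. The 25 of the first comparison include Zfp457. The median was nearer 0 without TKO-2i replicate 1 (-0.063) or TKO-serum replicate 2 (-0.036). Leaving out any other single library gave 21 to 29 called members, 6 to 12 higher and 15 to 17 lower. That was 22.1% to 30.2% of tested members, beside 54.6% to 58.6% of all tested genes. In bulk RNA, fewer cells that express a gene and less RNA per cell cannot be told apart.

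**Figure D1:**
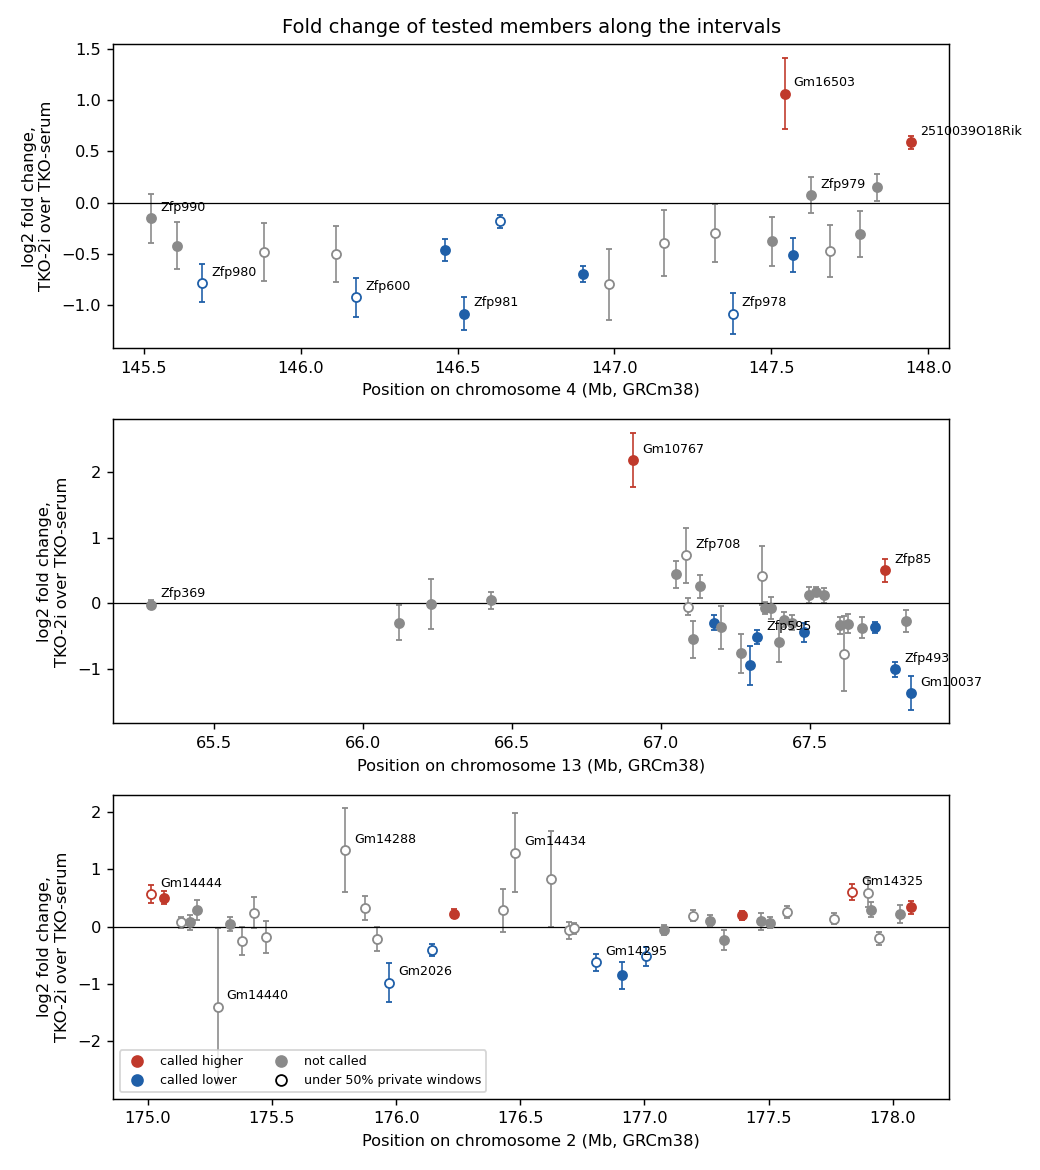
Log2 fold change of TKO-2i over TKO-serum (vertical axis, with SE) of each tested member against its position in Mb on chromosomes 4, 13 and 2 (horizontal axes). Red and blue points were called higher and lower in TKO-2i, grey points were not called and open points are under 50% private; on chromosome 4, 18 of 22 points lie under 0.

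The chromosome 4 cluster had less RNA in TKO-2i than in TKO-serum when its members were summed. Its 22 members, all tested, span chr4:145510759-147947314. Summed over the 22 members, the level was 683, 1097 and 743 TPM in TKO-2i and 1105, 1434 and 1259 TPM in TKO-serum. In TPM the 3 TKO-2i sums lay under the 3 TKO-serum sums, and TKO-2i replicate 2 came close to TKO-serum replicate 1. In CPM scaled by edgeR's normalisation the groups overlapped, with TKO-2i replicate 2 at 1227 and TKO-serum replicate 1 at 1166. Group means were 841 ± 224 TPM in TKO-2i and 1266 ± 165 TPM in TKO-serum (SD, n = 3). The log2 ratio of the means was -0.59 in TPM and -0.47 in CPM scaled by edgeR's normalisation. In CPM it was -0.70 without TKO-2i replicate 2 and -0.60 without replicate 2 of both groups, and leaving out any other single library gave -0.55 to -0.34.

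On chromosome 4, 10 members (45.5%, against 62.5% of all tested genes) were called, 2 higher and 8 lower, and the median log2 fold change was -0.44. All 19 members with a zinc finger were either lower in TKO-2i, in 7 cases, or not called. The other members called, Gm21411, Gm16503 and 2510039O18Rik, encode no zinc finger in their longest coding sequence. Without TKO-2i replicate 2, 18 members were lower and 1 was higher, and Zfp979, Zfp933 and Gm16503 were not called. Without replicate 2 of both groups, 18 were lower and 2 higher. The share called was then over that of all tested genes, at 86.4% against 67.2% in the first case and 90.9% against 65.7% in the second. Leaving out any other single library gave 6 or 7 lower and 1 or 2 higher, beside 54.6% to 58.6% of all tested genes called. The median was -0.75 without TKO-2i replicate 2, and it was nearer 0 without TKO-2i replicate 1 (-0.29) or TKO-serum replicate 2 (-0.28).

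**Figure D2:**
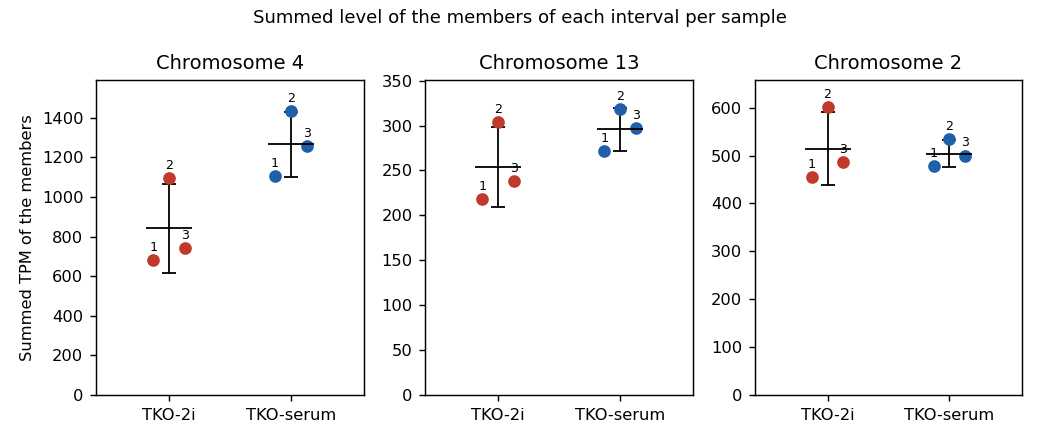
Summed TPM of the members of each cluster (vertical axes) in the 3 TKO-2i and 3 TKO-serum replicates (points, numbered by replicate, with mean and SD). The chromosome 4 sums run from 683 to 1097 TPM in TKO-2i and from 1105 to 1434 TPM in TKO-serum. In scaled CPM they overlap, at 758 to 1227 in TKO-2i and 1166 to 1490 in TKO-serum.

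Zfp981 (ENSMUSG00000056300, chr4:146502027-146539395), a gene with 7 fingers and 76.7% private sequence, measured 32.9, 47.5 and 34.6 TPM in TKO-2i and 80.3, 100.3 and 92.1 TPM in TKO-serum, replicates 1 to 3 in order in each group. Its group means were 38.3 ± 7.99 TPM in TKO-2i and 90.9 ± 10.1 TPM in TKO-serum (SD, n = 3). The 3 TKO-2i values lay under the 3 TKO-serum values. The log2 fold change was -1.08 ± 0.16 (SE), with an adjusted p of 4.43e-04 in the edgeR quasi-likelihood test (Benjamini-Hochberg). Zfp985 (ENSMUSG00000065999, chr4:147553277-147585198), 95.6% private and named after its values were seen, measured 26.5, 36.97 and 28.6 TPM in TKO-2i and 41.3, 52.7 and 47.1 TPM in TKO-serum. Here too the groups did not overlap, and the log2 fold change was -0.51 ± 0.17 (SE) with an edgeR quasi-likelihood Benjamini-Hochberg adjusted p of 0.0266. That call was lost without TKO-2i replicate 3 (-0.46) or TKO-serum replicate 2 (-0.42) or 3 (-0.52). Zfp992 (ENSMUSG00000070605, chr4:146449023-146470292), 65.5% private, measured 47.3, 64.1 and 54.7 TPM in TKO-2i and 77.1, 88.02 and 84.7 TPM in TKO-serum. Every TKO-2i sample was under every TKO-serum sample, and Zfp992 fell by 0.46 on the log2 scale (edgeR quasi-likelihood Benjamini-Hochberg adjusted p = 0.00590).

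Zfp978, Zfp600 and Zfp980 were among the most abundant members and share much of their sequence, so their own levels are uncertain. Zfp978 (ENSMUSG00000078497, chr4:147361303-147391004), 33.6% private, measured 51.6, 86.5 and 55.7 TPM in TKO-2i and 125, 163 and 143 TPM in TKO-serum. Zfp600 (ENSMUSG00000066007, chr4:146156824-146198755), 25.5% private, measured 50.3, 76.5 and 51.9 TPM in TKO-2i and 99.8, 121 and 109.8 TPM in TKO-serum. Zfp980 (ENSMUSG00000058186, chr4:145670685-145704441), 43.9% private, measured 64.02, 105 and 72.9 TPM in TKO-2i and 132, 168 and 149.9 TPM in TKO-serum. In each of these genes the 3 TKO-2i values lay under the 3 TKO-serum values. Log2 fold changes were -1.08 ± 0.20 (SE) for Zfp978, -0.92 ± 0.19 (SE) for Zfp600 and -0.78 ± 0.18 (SE) for Zfp980. Their adjusted p-values in the edgeR quasi-likelihood test (Benjamini-Hochberg) were 0.00154, 0.00270 and 0.00558.

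Rex2, a zinc finger gene of the same interval that the naming rule leaves out, shares sequence with these genes. It held 64.4% of the windows of Zfp600, 46.6% of those of Zfp980 and 35.1% of those of Zfp978. Zfp600 held 37.9% of the windows of Zfp978 and Zfp979 held 34.6%. Rex2 (ENSMUSG00000067919, chr4:147021850-147060794) measured 72.9, 119.5 and 78.04 TPM in TKO-2i and 157, 212 and 189.6 TPM in TKO-serum. It was lower as well, with no overlap of the groups and a log2 fold change of -0.93 ± 0.20 (SE) (edgeR quasi-likelihood Benjamini-Hochberg adjusted p = 0.00373). The sum of Zfp980, Zfp600, Zfp978, Zfp981 and Rex2, genes put together after their values were seen, was 272, 435 and 293 TPM in TKO-2i and 594, 765 and 684 TPM in TKO-serum. In CPM its log2 ratio of means was -0.92, and with Zfp979, which was not called, added to the sum it was -0.83. Reads can still have been divided with further copies outside these sums.

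Zfp993, 21.3% private, measured 25.7, 27.3 and 26.8 TPM in TKO-2i and 31.8, 33.4 and 30.97 TPM in TKO-serum. The groups did not overlap, and its log2 fold change was -0.18 ± 0.066 (SE) with an edgeR quasi-likelihood Benjamini-Hochberg adjusted p of 0.0387. Zfp991 held 75.4% of its windows, and the merged pair of Zfp993 and Zfp991 was not called, at a log2 fold change of -0.32. Zfp993 also lost its call when TKO-2i replicate 1 or 3 or TKO-serum replicate 1 or 2 was left out, with log2 fold changes of -0.16, -0.19, -0.17 and -0.16 in turn. Gm21411, a member without a finger that was named after its values were seen, is 51.2% private and measured 32.1, 41.7 and 33.8 TPM in TKO-2i and 58.7, 60.8 and 60.5 TPM in TKO-serum. Its TKO-2i values were all under its TKO-serum values, and the log2 fold change was -0.70 ± 0.082 (SE).

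**Figure D3:**
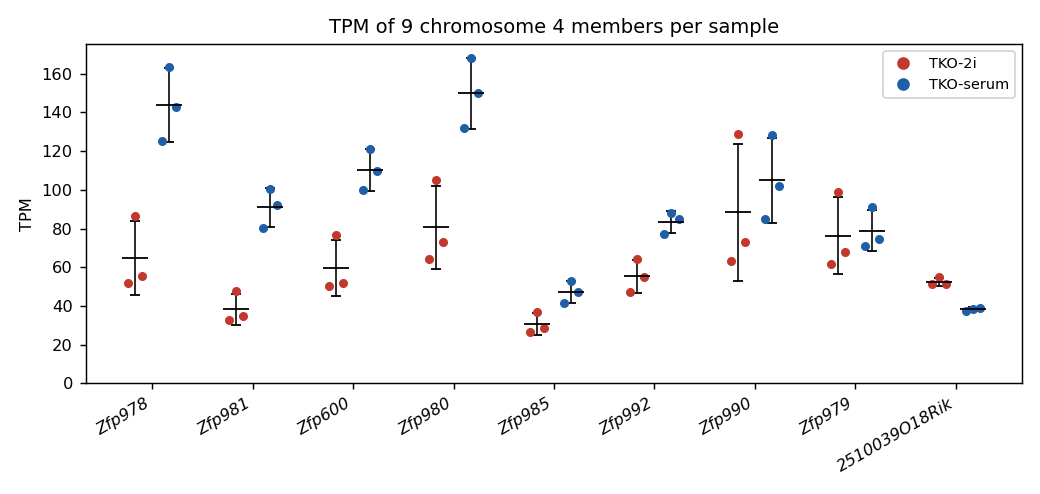
TPM (vertical axis) of 9 chromosome 4 members in each TKO-2i and TKO-serum replicate, shown as points with the group mean and SD. The groups are apart in Zfp978, Zfp981, Zfp600, Zfp980, Zfp985, Zfp992 and 2510039O18Rik and overlap in Zfp990 and Zfp979.

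The other 12 members of chromosome 4 were not called, with fitted log2 fold changes from -0.80 for Zfp989 to 0.15 for Zfp933, and 10 of them were negative. Zfp990 (ENSMUSG00000078503, chr4:145510759-145539188), 88.4% private, measured 63.2, 129 and 72.96 TPM in TKO-2i and 84.7, 128 and 102 TPM in TKO-serum. TKO-2i replicate 2 was as high as TKO-serum replicate 2, while the other TKO-2i values were under all TKO-serum values. Its log2 fold change was -0.15 ± 0.24 (SE) with all samples (edgeR quasi-likelihood Benjamini-Hochberg adjusted p = 0.603) and -0.49 without TKO-2i replicate 2, when it was called. Zfp979, named after its values were seen, measured 61.8, 98.9 and 67.8 TPM in TKO-2i and 71.2, 90.9 and 74.8 TPM in TKO-serum, so the groups overlapped. Its fitted log2 fold change was 0.074 ± 0.17 (SE).

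Gm16503 and 2510039O18Rik, at the distal end of the cluster, were the pair called higher, and neither encodes a zinc finger. 2510039O18Rik (ENSMUSG00000044496, chr4:147940895-147947314), whose sequence is 100% private, measured 51.1, 54.9 and 51.4 TPM in TKO-2i and 37.4, 38.6 and 39.1 TPM in TKO-serum. All TKO-2i values were above all TKO-serum values, with a log2 fold change of 0.59 ± 0.067 (SE) (edgeR quasi-likelihood Benjamini-Hochberg adjusted p = 8.78e-05). Gm16503 measured 1.33, 3.38 and 2.23 TPM in TKO-2i and 0.760, 1.42 and 1.34 TPM in TKO-serum. The lowest TKO-2i value lay under the highest TKO-serum value, and the log2 fold change was 1.06 ± 0.35 (SE) (edgeR quasi-likelihood Benjamini-Hochberg adjusted p = 0.0265). The call of Gm16503 was lost without TKO-2i replicate 2 (log2 fold change 0.68), TKO-2i replicate 3 (1.07), TKO-serum replicate 1 (0.86) or TKO-serum replicate 3 (1.15).

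On chromosome 13 the 38 members span chr13:65259539-67844035 and most are weakly expressed. The summed level was 219, 304 and 239 TPM in TKO-2i and 271, 319 and 297 TPM in TKO-serum. TKO-2i replicate 2 lay inside the range of the TKO-serum samples and the other TKO-2i sums lay under it. Group means were 254 ± 44.4 TPM in TKO-2i and 296 ± 23.8 TPM in TKO-serum (SD, n = 3). The log2 ratio of means was -0.22 in TPM and -0.13 in scaled CPM. Without TKO-2i replicate 2 the CPM ratio was -0.28, and without replicate 2 of both groups it was -0.20. It was nearer 0 without TKO-2i replicate 1 (-0.033), TKO-2i replicate 3 (-0.093) or TKO-serum replicate 2 (-0.052).

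Of the 34 tested members of chromosome 13, 9 (26.5%, against 62.5% of all tested genes) were called, 2 higher and 7 lower, and the median log2 fold change was -0.28. Without TKO-2i replicate 2, 1 was higher and 15 were lower. Without replicate 2 of both groups, 3 were higher and 14 lower. The shares called were 45.7% against 67.2% of all tested genes in the first case and 48.6% against 65.7% in the second. Both counts of falls include Gm10139 (-2.06 and -2.27). It entered these fits through TKO-serum alone and so had to be lower. The falls without TKO-2i replicate 2 also include Zfp457 (-0.96), which entered that fit through TKO-serum alone. Leaving out any other single library gave 1 to 4 higher and 5 or 6 lower, and the median was -0.13 without TKO-serum replicate 2. Of all tested genes, 54.6% to 58.6% were called in those fits. More falls were called with length-scaled counts (11) and with limma on log2 TPM (11 or 12), which changed the test as well. Settings that leave length aside gave more too, 10 with DESeq2 size factors in edgeR and 8 with DESeq2. Asking for at least 10 counts in every sample gave 9 falls, and no filter on low counts gave 12. All 9 called members are over 50% private, so read sharing touches these calls less than those of the other clusters.

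Zfp493 (ENSMUSG00000090659, chr13:67779693-67792512), with 11 fingers and 99.2% private sequence, measured 2.05, 2.45 and 1.86 TPM in TKO-2i and 4.13, 4.61 and 3.98 TPM in TKO-serum. Its TKO-2i values lay well under its TKO-serum values and the groups did not overlap. The log2 fold change was -1.01 ± 0.12 (SE), with an adjusted p of 1.03e-04 in the edgeR quasi-likelihood test (Benjamini-Hochberg). Zfp595 (ENSMUSG00000057842, chr13:67312998-67332570), with 20 fingers, measured 2.998, 3.30 and 2.63 TPM in TKO-2i and 4.18, 4.96 and 4.68 TPM in TKO-serum. Again the groups were apart, and the log2 fold change was -0.52 ± 0.11 (SE) (edgeR quasi-likelihood Benjamini-Hochberg adjusted p = 0.00337). Zfp874b (ENSMUSG00000059839, chr13:67471513-67484258) measured 4.56, 7.28 and 6.31 TPM in TKO-2i and 9.003, 9.21 and 8.15 TPM in TKO-serum. In TPM it was lower in each TKO-2i sample, while in CPM TKO-2i replicate 2 (9.140) was level with TKO-serum replicate 3 (9.139). The log2 fold change was -0.44 ± 0.14 (SE) (edgeR quasi-likelihood Benjamini-Hochberg adjusted p = 0.0266). Zfp874b lost its call without TKO-2i replicate 1 (-0.33) or 3 (-0.43) or TKO-serum replicate 1 (-0.43) or 2 (-0.37). Its neighbour Zfp874a, which has the same number of fingers, was not called with all samples, at a log2 fold change of -0.29 ± 0.12 (SE), and was called lower without TKO-2i replicate 2 (-0.42) and without replicate 2 of both groups (-0.39).

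Rsl1 (ENSMUSG00000058900, chr13:67173182-67184044), the regulator of sex-limitation gene that holds down male-typical liver genes in female mice, measured 1.93, 2.08 and 2.23 TPM in TKO-2i and 2.61, 2.68 and 2.74 TPM in TKO-serum. The 3 TKO-2i values were under the 3 TKO-serum values. Its log2 fold change was -0.30 ± 0.11 (SE) with an edgeR quasi-likelihood Benjamini-Hochberg adjusted p of 0.0438. That call was lost on leaving out any single library, with log2 fold changes between -0.32 and -0.26, and without replicate 2 of both groups (-0.31). Rslcan18, a candidate gene of the same locus, measured 0.175, 0.422 and 0.236 TPM in TKO-2i and 0.356, 0.476 and 0.448 TPM in TKO-serum and was not called with all samples (-0.55). It was called lower without TKO-2i replicate 2, at -0.88, and without replicate 2 of both groups, at -0.83.

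Gm10037 and Zfp457, named after their values were seen, were also called lower on chromosome 13. Gm10037 (ENSMUSG00000058246, chr13:67831106-67844035) measured 0.925, 1.46 and 0.752 TPM in TKO-2i and 2.57, 2.89 and 3.37 TPM in TKO-serum. Zfp457 measured 0.443, 0.541 and 0.263 TPM in TKO-2i and 1.17, 1.06 and 0.579 TPM in TKO-serum. The groups did not overlap in either gene, although TKO-serum replicate 3 of Zfp457 lay close to the TKO-2i values. Log2 fold changes were -1.37 ± 0.26 (SE) for Gm10037 and -0.95 ± 0.30 (SE) for Zfp457. Only 1 TKO-2i sample of Zfp457 reached the level of the filter on low counts, so its 3 TKO-serum samples brought it into the test, and its fall is uncertain. That sample was TKO-2i replicate 2, so without it Zfp457 passed the filter through TKO-serum alone and had to be lower. Zfp457 lost its call without TKO-2i replicate 1 (-0.97) or 3 (-0.92) or TKO-serum replicate 1 (-0.85) or 2 (-0.83), and without replicate 2 of both groups (-0.86). The remaining fall was Zfp65, also named after its values were seen, which measured 7.43, 9.65 and 7.34 TPM in TKO-2i and 10.5, 13.01 and 12.2 TPM in TKO-serum, with groups apart and a log2 fold change of -0.37 ± 0.088 (SE).

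Zfp85 (ENSMUSG00000058331, chr13:67747800-67755228) was higher in TKO-2i and measured 1.94, 2.50 and 2.35 TPM in TKO-2i and 1.48, 2.02 and 1.51 TPM in TKO-serum. TKO-2i replicate 1 lay under TKO-serum replicate 2, so the groups overlapped. The log2 fold change was 0.50 ± 0.18 (SE) (edgeR quasi-likelihood Benjamini-Hochberg adjusted p = 0.0351), and the call was lost without TKO-2i replicate 2 (0.41) or 3 (0.46) or TKO-serum replicate 1 (0.44) or 3 (0.42). Gm10767, the other member called higher, was named after its values were seen. It measured 0.346, 0.763 and 0.740 TPM in TKO-2i and 0.137, 0.107 and 0.157 TPM in TKO-serum, and its mean over all samples was 0.350 CPM. Since it entered the test through its TKO-2i values alone, its log2 fold change of 2.18 ± 0.41 (SE) is a description of a gene that had to differ.

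The most abundant members of chromosome 13 were not called. 2410141K09Rik (ENSMUSG00000074832, chr13:66418114-66441118), with 14 fingers, measured 82.2, 112 and 91.3 TPM in TKO-2i and 84.2, 104 and 94.2 TPM in TKO-serum. The groups overlapped, and the fitted log2 fold change was 0.043 ± 0.13 (SE). Zfp369 measured 19.9, 23.6 and 20.6 TPM in TKO-2i and 20.99, 23.1 and 21.4 TPM in TKO-serum, again with overlap. Gm10324 measured 24.7, 47.1 and 30.7 TPM in TKO-2i and 34.8, 52.6 and 45.8 TPM in TKO-serum. It was not called with all samples at -0.30 ± 0.27 (SE), and was called lower without TKO-2i replicate 2 at a log2 fold change of -0.67.

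Zfp459 showed how the scale can matter. Per length it measured 10.1, 15.8 and 13.8 TPM in TKO-2i and 19.4, 19 and 20.3 TPM in TKO-serum, and the groups did not overlap. In counts its log2 fold change was -0.25 ± 0.12 (SE) and missed the threshold (edgeR quasi-likelihood Benjamini-Hochberg adjusted p = 0.0888). From counts scaled by transcript length it was -0.48 and was called, and in counts without TKO-2i replicate 2 it was -0.38 and was called. Zfp456, its neighbour, measured 1.57, 2.33 and 1.39 TPM in TKO-2i and 1.53, 2.01 and 1.61 TPM in TKO-serum and was not called at -0.076 ± 0.16 (SE).

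Zfp708, which is known to bind a retroviral repeat family in the mouse, is only 5.69% private, since Gm28557 is annotated over the same positions. It measured 0.636, 2.18 and 0.942 TPM in TKO-2i and 0.677, 0.931 and 0.787 TPM in TKO-serum. TKO-2i replicate 2 was the highest value and the groups overlapped, so Zfp708 was not called (log2 fold change 0.73 ± 0.42 (SE)). Without TKO-2i replicate 1 it was called at 1.03, and without TKO-2i replicate 2 it was not called at 0.071. The sum of Zfp708 and Gm28557 had a log2 ratio of means of 0.14 in CPM. Zfp759, 100% private, measured 1.57, 2.52 and 2.10 TPM in TKO-2i and 1.72, 2.10 and 1.65 TPM in TKO-serum and was not called with all samples. Without TKO-2i replicate 1 Zfp759 was called at a log2 fold change of 0.41, and without TKO-2i replicate 2 it was not called at 0.097.

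In all, 25 tested members of chromosome 13 were not called, and their fitted log2 fold changes ran from -0.77 for Gm49345 to 0.73 for Zfp708. Gm10139, a short gene under the filter with all samples, had 3, 5 and 2 reads in TKO-2i and 12, 10 and 12 reads in TKO-serum.

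The total of the chromosome 2 cluster differed between the media by less than its replicates did. Its 46 members span chr2:174643534-178078476, and 39 were tested. The summed level was 456, 602 and 486 TPM in TKO-2i and 477, 534 and 500.3 TPM in TKO-serum. The TKO-2i samples spread around the TKO-serum samples, with TKO-2i replicate 2 highest of all 6. Means were 515 ± 76.8 TPM in TKO-2i and 504 ± 28.4 TPM in TKO-serum (SD, n = 3), a difference smaller than the spread between TKO-2i replicates. The log2 ratio of means was 0.031 in TPM and 0.066 in scaled CPM. The CPM ratio was -0.064 without TKO-2i replicate 2 and -0.011 without replicate 2 of both groups. It was 0.16 without TKO-2i replicate 1, 0.12 without TKO-serum replicate 2 and 0.026 without TKO-serum replicate 1.

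On chromosome 2, 11 members (28.2%, against 62.5% of all tested genes) were called, 6 higher and 5 lower, and the median log2 fold change was 0.10. No fitted log2 fold change of a called member of chromosome 2 passed 2-fold with all samples, while without TKO-2i replicate 2 Gm2026 (-1.12), Gm14296 (-1.12) and Gm14440, described below, did. Without TKO-2i replicate 2, 6 were higher and 10 lower, and the median was -0.0043; it was 0.18 without TKO-2i replicate 1. Without replicate 2 of both groups, 3 were higher and 9 lower. The shares called were 41.0% against 67.2% of all tested genes in the first case and 31.6% against 65.7% in the second. Leaving out any other single library gave 3 to 6 higher and 3 to 5 lower, and limma on log2 TPM gave 2 higher and 4 lower. Of all tested genes, 54.6% to 58.6% were called in those single-library fits and 55.3% with limma. Of the 15 tested members that are at least 50% private, 4 were higher and 1 lower. Among the 24 tested members under 50%, 2 were higher and 4 lower.

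Among the members called higher, Gm14393 (ENSMUSG00000078905, chr2:175061549-175067781), 52.9% private, measured 20.98, 22.7 and 20.6 TPM in TKO-2i and 18.5, 16.2 and 14 TPM in TKO-serum. All TKO-2i values lay above all TKO-serum values, and the log2 fold change was 0.51 ± 0.11 (SE) (edgeR quasi-likelihood Benjamini-Hochberg adjusted p = 0.00372). Its neighbour Gm14444 (ENSMUSG00000078906, chr2:175010241-175019248), only 22.8% private, measured 21.8, 30.5 and 23.7 TPM in TKO-2i and 14.8, 19.7 and 16.9 TPM in TKO-serum. The groups were apart, at a log2 fold change of 0.57 ± 0.15 (SE) (edgeR quasi-likelihood Benjamini-Hochberg adjusted p = 0.0111). Merged with Gm14406, a gene it shares sequence with, it was still called higher, at a log2 fold change of 0.43.

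Gm14325, 29.7% private, measured 30.7, 47.7 and 32.02 TPM in TKO-2i and 25.7, 30.4 and 22 TPM in TKO-serum. Its TKO-2i values were above its TKO-serum values, by a small margin in TKO-2i replicate 1, and the log2 fold change was 0.61 ± 0.14 (SE) (edgeR quasi-likelihood Benjamini-Hochberg adjusted p = 0.00578). Merged with Gm14326 and Gm14399 the call was lost, at a log2 fold change of 0.21. 2210418O10Rik measured 22.3, 28.2 and 23.5 TPM in TKO-2i and 20.5, 23.4 and 23.1 TPM in TKO-serum. Its groups overlapped, and its log2 fold change was 0.23 ± 0.083 (SE) (edgeR quasi-likelihood Benjamini-Hochberg adjusted p = 0.0408). That call was lost without TKO-2i replicate 2 (0.14) or 3 (0.24) or TKO-serum replicate 1 (0.19), 2 (0.25) or 3 (0.24). Zfp931 and Gm14418, named after their values were seen, were the other members called higher, at 0.33 ± 0.11 (SE) and 0.20 ± 0.075 (SE). Gm14418 lost its call on leaving out any single library (0.17 to 0.23), and Zfp931 lost it without TKO-2i replicate 1 (0.27) or TKO-serum replicate 1 (0.31) or 2 (0.33). Without replicate 2 of both groups, 2210418O10Rik (0.15), Gm14418 (0.19) and Zfp931 (0.31) were not called.

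Gm14295, Gm14419 and Gm2004 were all lower and share sequence with each other. Gm14295 (ENSMUSG00000078877, chr2:176798612-176811223), a gene with 25 fingers and 37.1% private sequence, measured 11.03, 15.8 and 11.4 TPM in TKO-2i and 19.3, 21.4 and 22.8 TPM in TKO-serum. It held 63.5% of the windows of Gm14419 and 62.1% of those of Gm2004, both named after their values were seen. In each of the 3 genes the TKO-2i values lay under the TKO-serum values. Merged, they measured 27.7, 37.1 and 30.1 CPM in TKO-2i and 42.4, 47.6 and 44.8 CPM in TKO-serum. The merged log2 fold change was -0.51 ± 0.10 (SE) and was called. Alone, Gm14419 lost its call without TKO-2i replicate 3 (-0.42) or TKO-serum replicate 1 (-0.40).

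Gm14296 was the fall on chromosome 2 with the most private sequence, at 74.4%, and encodes no finger in its longest coding sequence. In CPM it measured 1.27, 2.64 and 1.95 CPM in TKO-2i and 3.11, 3.85 and 3.53 CPM in TKO-serum. The groups did not overlap in counts, and the log2 fold change was -0.85 ± 0.23 (SE) (edgeR quasi-likelihood Benjamini-Hochberg adjusted p = 0.0119). Per length it measured 1.19, 1.85 and 1.61 TPM in TKO-2i and 1.63, 2.27 and 1.65 TPM in TKO-serum, with overlap between the groups. From counts scaled by transcript length it was not called, at a log2 fold change of -0.17.

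Gm2026 (ENSMUSG00000078886, chr2:175965331-175980303) shows the uncertainty of near identical copies. It is 3.19% private and measured 1.45, 4.06 and 4.63 TPM in TKO-2i and 8.28, 6.76 and 7.08 TPM in TKO-serum. Alone it was called lower, at a log2 fold change of -0.98 ± 0.34 (SE) (edgeR quasi-likelihood Benjamini-Hochberg adjusted p = 0.0322). Gm14308 held 85.95% of its windows and Gm4724 78.03%. Merged with the 7 members it shares sequence with, it measured 156, 207 and 174 CPM in TKO-2i and 162, 189 and 165 CPM in TKO-serum. The merged log2 fold change was 0.059 ± 0.11 (SE), so the call was lost and the sign turned. The call of Gm2026 alone was also lost without TKO-serum replicate 1 (-0.87), 2 (-1.04) or 3 (-1.01), and its log2 fold change was -0.62 without TKO-2i replicate 1. Gm4631, the most abundant of the 8 and 59.5% private, measured 53.98, 73.1 and 59 TPM in TKO-2i and 57.98, 71.1 and 61.4 TPM in TKO-serum and was not called.

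Gm14440 and Gm14288, 0% private and named after their values were seen, had read counts that differed widely between replicates of the same group. Gm14440 had 0, 274 and 0 reads in TKO-2i and 0, 400 and 394 reads in TKO-serum. Gm14288 had 334, 308 and 395 reads in TKO-2i and 280, 126 and 6 reads in TKO-serum. Gm14440 thus was at 0 in replicates of both groups and was not called with all samples. With TKO-2i replicate 2 left out, both remaining TKO-2i samples were at 0 and it was called lower at -10.95, having passed the filter through TKO-serum alone, and without replicate 2 of both groups it was not tested. Merged with Gm14327 and Gm14435, the 4 genes measured 9.42, 15.9 and 11.8 CPM in TKO-2i and 8.61, 11.5 and 10.9 CPM in TKO-serum. The merged log2 fold change was 0.26 ± 0.19 (SE) and was not called.

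Gm14443, 96.3% private, and Zfp970, 69.6% private, were not called. Gm14443 measured 6.57, 9.13 and 7.50 TPM in TKO-2i and 7.03, 8.06 and 7.86 TPM in TKO-serum. Zfp970 measured 25.3, 40.5 and 32.9 TPM in TKO-2i and 28.8, 36.3 and 32.9 TPM in TKO-serum. The groups overlapped in both, and the fitted log2 fold changes were 0.074 ± 0.13 (SE) and 0.092 ± 0.15 (SE). Over the 28 tested members of chromosome 2 that were not called, fitted log2 fold changes ran from -1.39 for Gm14440 to 1.33 for Gm14288. Over all 3 clusters, merging members that share at least 50% of windows gave 78 units, of which 14 joined 42 members. Of the 71 merged units tested, 9 were higher and 17 lower, beside 62.6% of all genes called in the merged fit.

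Promoters of 72 members were matched in RefSeq (GRCm38.p6), 14 on chromosome 4, 25 on chromosome 13 and 33 on chromosome 2, each running from 250 bases before to 50 bases after the start. Both strands were searched for TGACGTCA (cAMP response element) and for motifs of the core promoter box, of ETS factors and of helix-loop-helix factors. The letters GGGCGG, bound by Sp1 and its relatives, and the letters CCAAT, bound by the factor NF-Y, were also searched. A run in which the second lies on the opposite strand and overlaps the first, ATTGGGCGG, was added after seeing the sequences. ATTGGGCGG was found in 9 of the 14 chromosome 4 promoters (Gm13212, Zfp600, Zfp979, Zfp980, Zfp981, Zfp982, Zfp984, Zfp985 and Zfp988), against 0.256% of 32851 promoters of the same length, and in 0 of those of chromosomes 2 and 13. Of these 9 genes, 4 were lower and 5 were not called with all samples. Without TKO-2i replicate 2, and also without replicate 2 of both groups, 8 were lower and Zfp979 was not called. Of the 5 chromosome 4 genes without these letters, 1 was lower and 1 higher with all samples. In each of the other comparisons 3 of them were lower and 1 higher. Over all tested genes 30.6% were lower and 31.9% higher. The match is a description and shows no binding. The promoters of Zfp600 and Zfp979 were 94.7% identical, and those of Zfp980 and Zfp979 89.7%, although Zfp600 and Zfp980 were called lower and Zfp979 was not.

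The following promoters are shown because they place the same letters near the start in 4 genes that were lower and in Zfp979, which was not called. They were chosen after the values were seen and are written 5' to 3' with ATTGGGCGG, found on the strand of the gene in all 5, in capitals. They are Zfp980 (chr4:145670447-145670746, plus strand), Zfp600 (chr4:146156577-146156876, plus strand), Zfp979 (chr4:147642459-147642758, minus strand), Zfp985 (chr4:147553027-147553326, plus strand) and Zfp981 (chr4:146514670-146514969, plus strand), RefSeq, GRCm38.p6. The match begins 73, 67, 73, 68 and 95 bases before the RefSeq start in these genes. For Zfp981 this promoter lies inside the GENCODE span given for the gene above, and not at an end of it.
Zfp980: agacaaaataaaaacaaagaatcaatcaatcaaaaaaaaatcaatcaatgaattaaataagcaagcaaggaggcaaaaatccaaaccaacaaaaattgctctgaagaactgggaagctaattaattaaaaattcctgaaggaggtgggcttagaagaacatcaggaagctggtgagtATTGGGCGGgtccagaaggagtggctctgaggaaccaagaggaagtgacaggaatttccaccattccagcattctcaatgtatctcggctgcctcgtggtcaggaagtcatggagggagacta
Zfp600: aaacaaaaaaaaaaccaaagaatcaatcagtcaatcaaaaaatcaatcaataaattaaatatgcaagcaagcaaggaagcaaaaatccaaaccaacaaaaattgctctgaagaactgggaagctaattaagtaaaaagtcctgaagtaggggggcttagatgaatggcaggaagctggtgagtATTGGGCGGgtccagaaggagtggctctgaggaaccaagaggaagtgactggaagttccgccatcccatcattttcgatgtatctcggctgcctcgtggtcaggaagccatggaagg
Zfp979: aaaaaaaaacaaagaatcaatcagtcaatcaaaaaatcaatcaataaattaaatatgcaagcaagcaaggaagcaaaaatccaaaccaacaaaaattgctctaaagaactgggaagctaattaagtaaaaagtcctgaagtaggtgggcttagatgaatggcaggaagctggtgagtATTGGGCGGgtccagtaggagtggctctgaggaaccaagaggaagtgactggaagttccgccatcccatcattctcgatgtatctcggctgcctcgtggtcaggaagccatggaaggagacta
Zfp985: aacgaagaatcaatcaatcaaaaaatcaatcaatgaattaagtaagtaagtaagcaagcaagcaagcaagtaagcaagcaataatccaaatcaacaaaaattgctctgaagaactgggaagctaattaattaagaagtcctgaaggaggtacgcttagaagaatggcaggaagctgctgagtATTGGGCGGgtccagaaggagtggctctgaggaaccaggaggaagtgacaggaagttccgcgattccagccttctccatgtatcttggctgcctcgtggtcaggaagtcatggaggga
Zfp981: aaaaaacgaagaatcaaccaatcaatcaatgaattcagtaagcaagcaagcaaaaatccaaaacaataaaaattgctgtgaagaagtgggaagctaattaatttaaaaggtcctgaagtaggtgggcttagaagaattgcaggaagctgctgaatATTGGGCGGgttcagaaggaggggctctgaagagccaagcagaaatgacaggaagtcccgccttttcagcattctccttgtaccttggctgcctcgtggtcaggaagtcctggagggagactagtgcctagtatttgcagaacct

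On chromosome 13 the palindrome TGACGTCA, the cAMP response element, was found in 6 of 25 promoters (Gm10037, Zfp457, Zfp595, Zfp874a, Zfp874b and Zfp953), against 1.79% of all 32851 promoters, and in 0 promoters of chromosomes 2 and 4. Of these 6 genes, 4 were called lower, 0 higher, and Zfp874a and Zfp953 were not called. The fall of Zfp457 is uncertain, since its TKO-serum samples brought it into the test. Its call was lost without replicate 2 of both groups. Among the 19 matched and tested genes without TGACGTCA, 2 were lower and 1 was higher, and over all tested genes 30.6% were lower and 31.9% higher. This contrast was smaller without TKO-2i replicate 2, when 5 of the 6, now with Zfp874a, and 7 of the 19 were lower, and without replicate 2 of both groups, when 4 of the 6 and 7 of the 19 were lower and 2 of the 19 higher. The 5 include Zfp457, which entered that fit through TKO-serum alone and so had to be lower. The promoters of the 4 genes called lower are shown for this shared element, in capitals, and were chosen after the values were seen. They are Gm10037 (chr13:67830856-67831155, plus strand), Zfp457 (chr13:67306363-67306662, minus strand), Zfp595 (chr13:67332511-67332810, minus strand) and Zfp874b (chr13:67484204-67484503, minus strand), RefSeq, GRCm38.p6. TGACGTCA begins 74, 56, 28 and 12 bases before the start in these genes.
Gm10037: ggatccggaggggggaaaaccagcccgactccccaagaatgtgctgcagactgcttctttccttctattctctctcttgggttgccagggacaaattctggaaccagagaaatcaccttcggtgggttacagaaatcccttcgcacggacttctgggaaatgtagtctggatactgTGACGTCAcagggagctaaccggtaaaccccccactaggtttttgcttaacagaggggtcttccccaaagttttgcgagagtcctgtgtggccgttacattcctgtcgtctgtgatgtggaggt
Zfp457: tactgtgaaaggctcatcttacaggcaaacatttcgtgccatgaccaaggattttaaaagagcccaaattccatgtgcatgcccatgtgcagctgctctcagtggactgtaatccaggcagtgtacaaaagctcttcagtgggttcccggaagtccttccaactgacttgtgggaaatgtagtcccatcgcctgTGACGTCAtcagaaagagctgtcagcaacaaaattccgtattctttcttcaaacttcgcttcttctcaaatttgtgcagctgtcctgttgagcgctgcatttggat
Zfp595: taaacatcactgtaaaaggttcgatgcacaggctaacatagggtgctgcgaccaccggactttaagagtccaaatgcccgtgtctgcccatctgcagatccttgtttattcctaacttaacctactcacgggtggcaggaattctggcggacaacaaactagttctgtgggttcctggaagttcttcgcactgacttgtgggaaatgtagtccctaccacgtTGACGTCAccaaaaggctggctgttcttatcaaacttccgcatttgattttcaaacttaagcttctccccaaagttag
Zfp874b: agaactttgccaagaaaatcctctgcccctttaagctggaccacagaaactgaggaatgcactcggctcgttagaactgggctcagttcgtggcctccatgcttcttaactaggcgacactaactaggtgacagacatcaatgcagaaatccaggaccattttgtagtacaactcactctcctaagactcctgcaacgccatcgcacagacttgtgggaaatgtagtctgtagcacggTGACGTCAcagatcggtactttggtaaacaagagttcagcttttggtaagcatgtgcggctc

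Chromosome 2 promoters were alike, with 81 pairs at least 90% identical and 9 pairs identical. CCAAT was found in 31 of the 33, against 37.4% of all promoters. GGGCGG was found in 0 of the 33, against 35.7% of all promoters and in 10 of the 14 of chromosome 4. The ETS motif was found in 9 of the 33, in 8 of the 25 of chromosome 13 and in 0 of the 14 of chromosome 4, against 8.86% of all promoters. On chromosome 2, 3 of its 8 tested genes were lower and 0 higher, beside 1 lower and 5 higher of the 22 tested genes without it, and beside 30.6% lower and 31.9% higher over all tested genes. These counts were 5 lower and 0 higher beside 3 lower and 4 higher when TKO-2i replicate 2 was left out. With all samples the 3 lower genes were Gm14295, Gm14419 and Gm2004, which share sequence and were merged above. The promoters of Gm14419 and Gm2004 were identical, so these are not 3 separate cases. On chromosome 13, 2 of the 8 tested genes with the ETS motif were lower and 0 higher, beside 4 lower and 1 higher of the 17 without it. Those counts were 4 lower beside 8 lower without TKO-2i replicate 2, with 0 higher in either. The 4 include Zfp457, which entered that fit through TKO-serum alone and so had to be lower. Without replicate 2 of both groups they were 3 lower beside 8 lower and 2 higher. The motifs of the core promoter box and of helix-loop-helix factors were each found in at most 3 promoters of a cluster. The promoters of Gm2026, Gm14434, Gm14308 and Gm4724 were identical, while the fitted log2 fold changes of these genes were -0.98, 1.29, 0.83 and 0.24. Those 4 genes also share most of their transcript sequence, so the differences between their fold changes are uncertain. The promoter of Gm2026 (chr2:175965105-175965404, plus strand, RefSeq, GRCm38.p6) is shown as the sequence the 4 copies have in common, with its CCAAT matches of either strand in capitals, and was chosen after the values were seen.
Gm2026: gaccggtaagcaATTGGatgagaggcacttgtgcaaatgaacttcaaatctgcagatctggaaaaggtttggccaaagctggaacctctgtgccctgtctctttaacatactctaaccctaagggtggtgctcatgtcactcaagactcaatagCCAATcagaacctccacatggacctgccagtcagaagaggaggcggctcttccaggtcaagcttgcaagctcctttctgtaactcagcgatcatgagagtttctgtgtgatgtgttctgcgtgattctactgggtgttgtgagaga

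The genes through which KRAB zinc finger proteins act were measured beside the members, of which not all showed a KRAB pattern. Of 27 corepressor and heterochromatin genes tested, 6 were higher and 6 were lower in TKO-2i, so 44.4% were called against 62.5% of all tested genes, and their median log2 fold change was -0.032. Trim28, the corepressor itself, measured 844, 927 and 901 TPM in TKO-2i and 1203, 1327 and 1325 TPM in TKO-serum. Its TKO-2i values were all under its TKO-serum values, with a log2 fold change of -0.43 ± 0.056 (SE) (edgeR quasi-likelihood Benjamini-Hochberg adjusted p = 2.01e-04). Setdb1, the histone methyltransferase that Trim28 recruits, measured 65.9, 80.9 and 68.1 TPM in TKO-2i and 46.6, 53.9 and 50.2 TPM in TKO-serum. It moved the other way, with every TKO-2i sample above every TKO-serum sample and a log2 fold change of 0.60 ± 0.054 (SE) (edgeR quasi-likelihood Benjamini-Hochberg adjusted p = 2.05e-05). Among genes of heterochromatin protein HP1, Cbx3 was higher at 0.73 ± 0.048 (SE), Cbx5 was lower at -0.33 ± 0.11 (SE) and Cbx1 was not called at 0.10 ± 0.047 (SE). The other rises were Chd3 at 0.77, Mta2 at 0.54, Morc2a at 0.25 and Sumo2 at 0.24. The other falls were Suv39h1 at -0.81, Ehmt1 at -0.32, Pphln1 at -0.20 and Suv39h2 at -0.20. Leaving out single libraries ended the calls of Cbx5 (-0.35 to -0.26, without TKO-2i replicate 1 or 3 or TKO-serum replicate 2 or 3) and Sumo2 (0.19 to 0.22, without TKO-2i replicate 1 or 3 or TKO-serum replicate 3). It also ended those of Pphln1 (-0.19 without TKO-2i replicate 3, -0.16 without TKO-serum replicate 2) and Suv39h2 (-0.17 without TKO-serum replicate 1).

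Elsewhere in the genome, 333 of 344 other genes named Zfp were tested, and 197 (59.2%) were called, 82 higher and 115 lower. Their median log2 fold change was -0.034. The share called was thus near that of all tested genes, at 62.5%, while that of the clustered members was 31.6%. Whether these shares differ was not tested. Of 16 zinc finger genes with a described role, in and out of the clusters, 1 was higher and 8 were lower, or 56.2% called against 62.5% of all tested genes. Of the falls, Zfp568 lost its call on leaving out any single library but TKO-2i replicate 2 (-0.21 to -0.17), and Zfp961 lost it without TKO-2i replicate 3 (-0.21) or TKO-serum replicate 2 (-0.19). The rise was Zfp819, at 0.62 ± 0.055 (SE). The falls outside the clusters included Zfp57, a keeper of genomic imprints, which measured 177, 226 and 197 TPM in TKO-2i and 248, 279.9 and 274 TPM in TKO-serum, with groups apart and a log2 fold change of -0.26 ± 0.059 (SE). Zfp809, which silences retroviruses through their primer binding site, measured 38.3, 50.7 and 40.5 TPM in TKO-2i and 47.4, 53.97 and 50.4 TPM in TKO-serum and was not called.

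Markers of other cells moved with the media. Over all tested genes, 31.9% were higher and 30.6% lower. The 16 matched markers of 2-cell-like cells were all lower in TKO-2i, with a summed level of 3.10, 2.79 and 2.54 TPM in TKO-2i and 68.2, 81.8 and 76.7 TPM in TKO-serum. Of these, 9 passed the filter on low counts through TKO-serum alone and so had to be lower. Zscan4f was the most abundant in TKO-serum and Tmem92 in TKO-2i, and Gm20767 had 0 reads in all 3 TKO-2i samples. Of 6 primitive endoderm markers, 5 were lower, and their summed level was 4.76, 5.75 and 4.64 TPM in TKO-2i and 14.4, 17.4 and 19.02 TPM in TKO-serum, with Dab2 most abundant in TKO-serum and Gata4, which was not called, in TKO-2i. Sox17, 1 of the 5, lost its call without TKO-serum replicate 2 (-0.49), and Sox7, another, passed the filter through TKO-serum alone. TKO cells were grown without feeder cells; of 5 fibroblast feeder markers, 3 were tested and 2 were lower, with a summed level of 4.06, 4.77 and 4.53 TPM in TKO-2i and 5.51, 6.22 and 5.77 TPM in TKO-serum and Thy1 most abundant. Of 6 embryonic stem cell markers, 2 were higher and 2 lower, or 66.7% called against 62.5% of all tested genes. Their summed level was 5062, 4580.2 and 4573 TPM in TKO-2i and 5658, 5309 and 5419.7 TPM in TKO-serum, led by Dppa5a. None of these stem cell markers was at 0 in any sample. The part of 2-cell-like or primitive endoderm cells in the levels of the clustered genes was not tested.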

How the data were processed

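The authors deposited a table per sample of 136288 transcripts with an estimated count and TPM, in columns as salmon writes them; the program and its index are not stated in the sources used here. Counts and TPM were summed per gene (GENCODE M21, 99.9% of transcripts matched) and counts rounded. edgeR 4.0.16 (R 4.3.3) ran filterByExpr (minimum count 10, 0.225 CPM), TMM scaling and the quasi-likelihood test on all genes, with Benjamini-Hochberg adjustment. Alternatives were DESeq2 1.42.0, its size factors, limma 3.58.1 on log2 TPM, other filters, length-scaled counts, a replicate block, merged copies and leaving out libraries. The fits were tested on simulated data. Named genes were, per interval, the 4 highest by mean TPM and, among members with a mean of at least 1 CPM, the 3 largest called rises and falls and the most private, plus members of the described-role list; others were named after their values were seen. Members and lists were chosen with earlier results of these data known. The marker Eif1ad8 was not matched. Promoters were aligned with edlib 1.3.9.post1. Python 3.11.15, numpy 2.4.6 and pandas 2.3.3 were used.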

Additional observations from a re-analysis of the deposited data

How the results depend on the processing

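With the replicate block, 53 members were called, 17 higher and 36 lower in TKO-2i, or 55.8% against 69.0% of all tested genes. On chromosome 4 the block gave 19 of 22 members called, 2 higher and 17 lower, or 86.4%. Pairing was checked by the correlation between groups of the replicates' deviations from their group means. Same-numbered replicates gave 0.242 for replicate 1, 0.329 for replicate 2 and 0.0140 for replicate 3, and different-numbered ones gave -0.326 to 0.123. Replicates 1 and 2 correlated best with their own number, while TKO-2i replicate 3 correlated best with TKO-serum replicate 1 (0.123). Whether same-numbered samples were handled together is not stated in the sources used here. The main comparison did not take the numbers as pairs and so leaves aside any such pairing. Without replicate 2 of both groups, chosen after seeing the data, 49 members were called, and 41 were lower. With limma on log2 TPM, 4 members were higher with an added 1 and 4 with an added 0.1. Among members at least 50% private, 12 were lower, since fewer genes were counted. Leaving out 1 library at a time gave 21 to 51 members called, 6 to 12 higher and 15 to 43 lower. Of all tested genes, 54.6% to 67.2% were called in these fits. TKO-2i replicate 2 gave the 51 and the 43, and TKO-serum replicate 1 gave the 6. The median log2 fold change ranged from -0.26 to -0.036. The summed level ranged from -0.70 to -0.34 on chromosome 4, -0.28 to -0.033 on chromosome 13 and -0.064 to 0.16 on chromosome 2, as log2 ratios. Merging copies turned Gm2026 to 0.059. Of 518 values of named genes under the alternatives, 450 kept their side of the threshold and direction, 15 became called, 52 lost the call and 1 turned sign. The causes of these shifts were not tested. With 3 samples a group, small differences in single members can be missed.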

Other observations

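Of the 24 other protein-coding genes of the 3 intervals, 17 were tested, and 8 were higher and 8 lower in TKO-2i. The 8 lower include Rex2, the zinc finger gene of chromosome 4 described above. That is 94.1% called, against 62.5% of all tested genes. On chromosome 13, all 5 tested genes were higher. On chromosome 4, the rise of Plod1 lost its call on leaving out any single library but TKO-2i replicate 2 (0.10 to 0.18). Uqcrb, a subunit of respiratory complex III, measured 439, 452 and 438 TPM in TKO-2i and 322, 318 and 305 TPM in TKO-serum, with groups apart and a log2 fold change of 0.58 ± 0.057 (SE). Ptdss1, a phosphatidylserine synthase, rose by 0.50 on the log2 scale. On chromosome 2, all 4 tested genes were lower, from -2.01 for Sycp2, a protein of the synaptonemal complex, to -3.01 for Ppp1r3d, all at under 3 TPM in each sample. Ppp1r3d passed the filter on low counts through TKO-serum alone, so it had to be lower.

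On chromosome 4, the tumour necrosis factor receptor genes Tnfrsf1b and Tnfrsf8 were higher. Tnfrsf1b measured 15.2, 17.5 and 14.6 TPM in TKO-2i and 5.30, 5.57 and 5.59 TPM in TKO-serum, and its log2 fold change was 1.62 ± 0.052 (SE). Tnfrsf8 measured 3.60, 4.29 and 3.18 TPM in TKO-2i and 1.16, 1.33 and 1.31 TPM in TKO-serum. In both, all TKO-2i values lay above all TKO-serum values. Fv1, a restriction gene derived from a retroviral gag gene, measured 0.489, 0.957 and 0.582 TPM in TKO-2i and 1.95, 2.47 and 2.07 TPM in TKO-serum and was lower at -1.62 ± 0.22 (SE). Miip measured 13.6, 17.4 and 13.99 TPM in TKO-2i and 28.2, 28.4 and 31.8 TPM in TKO-serum and was lower at -0.87 ± 0.064 (SE).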
